A study of Mus musculus with 16 samples.

Results

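The MEK inhibitor PD0325901 was compared with vehicle in undifferentiated spermatogonia sorted from adult wild-type mice 10 days after busulfan. The comparison uses 8 of the 16 libraries of the study, those whose column names carry Spry4ff with BU10_PD8 (4 libraries, WT_PD 1 to 4) or with BU10_SP (4 libraries, WT_vehicle 1 to 4), and it is described across the 12907 of 16383 listed genes with at least 1 FPKM in 4 or more of the 16 libraries. FPKM counts sequenced fragments relative to gene length and to library size. All mice had received busulfan at 10 mg/kg, an alkylating agent toxic to dividing germ cells, so no group shows the undamaged testis. Starting on day 3, PD0325901 at 2.5 mg/kg or vehicle with 10% DMSO was injected each day for 7 days. The samples are titled wild type, and what Spry4ff in their column names denotes is not spelled out in the labels. The other 8 libraries, 4 with vehicle and 4 with inhibitor, came from the germline knockout of Spry4, whose columns are named GCRT_Spry4KO, and they are used here only where the same inhibitor is set beside the wild type. Whether replicates came from separate animals is not said in the labels, so p-values measure only the spread between these libraries.

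MEK is the kinase that phosphorylates and activates ERK, the last kinase of the cascade that runs from receptor tyrosine kinases through RAS and RAF. In undifferentiated spermatogonia, GDNF from somatic cells acts through the receptor pair GFRA1 and RET, and FGFs act through their own receptors, to feed this cascade and to sustain stem cell genes. Active ERK induces immediate early genes within minutes and, more slowly, the PEA3 factors Etv4 and Etv5 and its own inhibitors, the Sprouty and Spred proteins and the Dusp phosphatases. Transcripts of these feedback genes are widely used as a readout of pathway activity.

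The 8 libraries differed in depth. The divisors recovered from whole-read steps in the FPKM values ran from 23360200 to 36469400, the reads in listed genes from 22992600 to 37599600, and 12276 to 12503 genes per library reached 1 FPKM. At 1 FPKM a gene was thus counted with 23.4 to 36.5 reads per kilobase, depending on the library. WT_PD 3 and 4, with 36307800 and 37599600 reads in listed genes, were deeper than every vehicle library (at most 28430100), and the part of depth in the differences below was not tested.

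No gene passed the threshold of 0.05 on the adjusted p (0 of 12907, 0%) in limma's test with Benjamini-Hochberg adjustment, and the smallest adjusted p was 1 after rounding. At an unadjusted p under 0.05 there were 115 genes (0.891%), 59 higher and 56 lower with inhibitor, and limma voom on reads recovered from the FPKM values also called 0 genes, with 118 of 12467 (0.946%) at an unadjusted p under 0.05. The 4 inhibitor libraries and the 4 vehicle libraries did not overlap for 85 genes (0.659%), of which 56 (0.434%) lay higher and 29 (0.225%) lower with inhibitor. Without any difference, a gene has a probability of 0.0286 of no overlap in either direction, and of 0.05 of an unadjusted p under 0.05. The shares seen were below both. The median size of the difference over all tested genes, either sign, was 0.06 on the log2(FPKM + 0.5) scale, the scale of every difference here, which understates changes of genes near or below 1 FPKM. The 95% interval reached a median of 0.31 to either side of the estimate, and for 11717 genes (90.8%) it lay within 1 log2 unit of no difference in either direction. For 9560 genes it lay within 1.5-fold. The data therefore bound the average difference for most genes without showing one for any gene after adjustment.

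**Figure D1:**
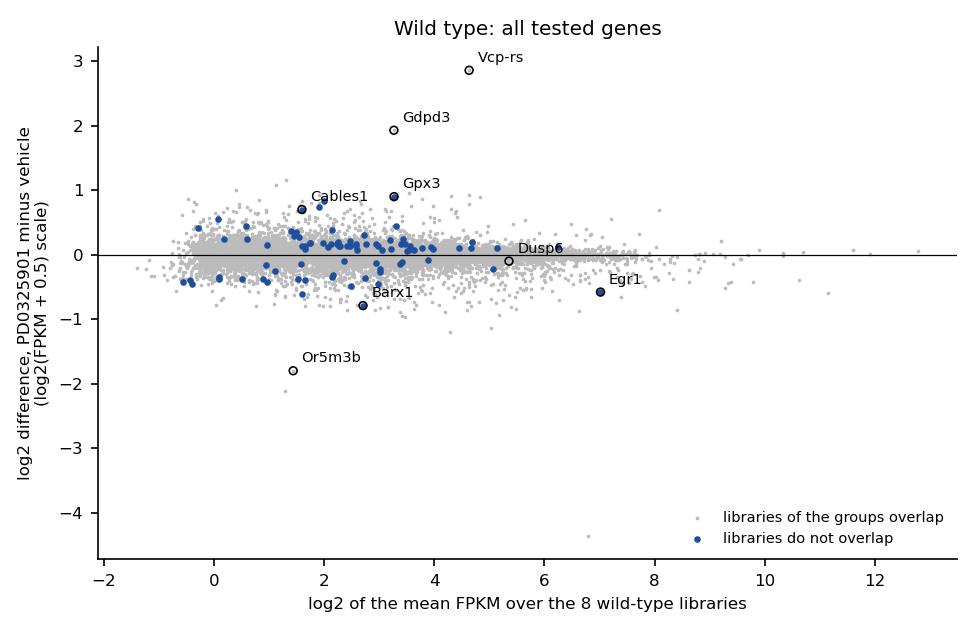
Each point is 1 of the 12907 tested genes, with the log2 of its mean FPKM over the 8 wild-type libraries on the horizontal axis and the log2 difference, PD0325901 minus vehicle, on the vertical axis. Blue points are the 85 genes whose inhibitor and vehicle libraries do not overlap, and circles mark named genes, with Egr1 lower and Gpx3 and Cables1 higher with inhibitor.

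The column names carry running numbers whose meaning the labels do not give. Numbers 440 to 447 hold replicates 1 and 2 of both wild-type groups, and numbers 448 to 455 hold replicates 3 and 4. Taken within each of these sets, 2 libraries against 2, the difference between inhibitor and vehicle had opposite signs for 9562 of the 12907 genes (74.1%). Fits within each set, added after the data were seen, called 0 genes by limma in either, with 1226 genes (9.5%) at an unadjusted p under 0.05 in the lower numbers and 686 (5.31%) in the higher numbers. Medians within the 2 sets, lower numbers first, are given with most gene groups below.

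Markers of several cell types moved with this split, those of peritubular myoid cells most. Peritubular myoid cells are the smooth-muscle-like cells around the seminiferous tubule and not a germ cell type. The genes listed for them made up 1.29% to 3.36% of summed FPKM with vehicle and 0.62% to 4.65% with inhibitor. All 11 listed markers were detected. They are contractile genes of smooth muscle, and whether they came from these cells or from other smooth muscle was not tested. Their mean log2 level was 6.75, 8.11, 8.36 and 7.74 in WT_vehicle 1 to 4 and 6.05, 5.53, 8.87 and 8.38 in WT_PD 1 to 4. WT_PD 1 and 2 were thus below every vehicle library and WT_PD 3 and 4 above every one. The median difference of the 11 genes was -0.48 over all libraries, -1.55 within the lower numbers and 0.58 within the higher numbers. Fewer cells of a type and less RNA per cell cannot be told apart in such bulk samples. Cnn1, the smooth muscle protein calponin, stood at 10.7, 39.1, 50.6 and 36.9 FPKM with vehicle and at 5.84, 1.22, 68.1 and 49.4 FPKM with inhibitor, a difference of -1.13 ± 0.96 (standard error) with overlapping groups. Actg2 and Lmod1, smooth muscle actin and leiomodin, had differences of -0.66 and -0.57 with the same 2 inhibitor libraries low.

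Markers of other somatic cells were scarce. Leydig cell genes, for the androgen-producing cells between the tubules, summed to 12.5 to 31.3 FPKM with vehicle and 6.55 to 47.7 with inhibitor (4 of 10 listed genes measured), and their receptor for luteinizing hormone, Lhcgr, was again lowest in WT_PD 1 and 2 at 2.54 and 1.77 FPKM. Its difference was -0.71, beside 0.03 for Nr5a1 and -0.23 for Fabp3, and these 3 tested Leydig genes had set medians of -1.18 and 0.62. Sertoli cell genes (11 of 14 measured) summed to 47.5 to 58.4 and 43.6 to 67.1 FPKM, and macrophage and leukocyte genes (12 of 13) to 9.87 to 12.7 and 8.79 to 15.4 FPKM. Endothelial genes (11 of 11) summed to 28.9 to 39 and 20.4 to 65.3 FPKM. Fibroblast genes (7 of 8) summed to 83.2 to 98.7 and 89.2 to 98.4 FPKM. Spermatid genes (15 of 15), from haploid cells that carry abundant transcripts, summed to 21.3 to 118 and 18.6 to 144 FPKM, with high and low libraries in both groups. No measured marker of these lists was at 0 in all 8 libraries. The defining genes of spermatogonia (8 of 8) summed to 785 to 838 FPKM with vehicle and to 642 to 1000 FPKM with inhibitor (set medians 0.27 and -0.14). Markers of the labelled cell type were thus present in every library, and the ubiquitin hydrolase gene Uchl1 alone reached 236 to 256 and 220 to 309 FPKM. The peritubular markers summed to more in every library, 2720 to 8340 FPKM with vehicle and 1280 to 12900 with inhibitor. Such sums do not give the shares of cells, which were not measured.

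Of the ERK feedback and output genes none passed the test. Of 22 tested members, 13 lay below vehicle (59.1%, where 46.0% of all tested genes did), with a median difference of -0.09 (set medians -0.13 and 0.04) against 0.01 over all genes, and 0 had an unadjusted p under 0.05. Dusp6, the ERK-specific phosphatase, stood at 38.7, 34.8, 43.4 and 52.4 FPKM with vehicle and at 37.7, 50.1, 40.3 and 30.3 FPKM with inhibitor. The groups overlapped throughout, the difference was -0.10 ± 0.15, and the interval ran from 74.7% to 116% of the vehicle level. Etv5, a PEA3 factor that stem cells need, stood at 47.2, 37.3, 48.4 and 55.6 FPKM with vehicle and at 44.6, 48.5, 40.8 and 34.7 FPKM with inhibitor. Its interval ran from 74.3% to 108% of vehicle (-0.16 ± 0.13), and that of its relative Etv4 from 73.4% to 111% (-0.15 ± 0.14). For Dusp6, Etv4 and Etv5 the difference was positive within the lower numbers (0.24, 0.14 and 0.14) and negative within the higher numbers (-0.44, -0.44 and -0.46).

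Spry4 and Spry2, which encode Sprouty inhibitors, split the other way. Spry4 stood at 22.6, 23.8, 21.9 and 19.9 FPKM with vehicle and at 15.9, 19.6, 27.4 and 23 FPKM with inhibitor, a difference of -0.06 ± 0.24 that was -0.39 within the lower numbers and 0.26 within the higher. Spry2 ran from 27 to 44.4 FPKM with vehicle and from 21.6 to 73.6 with inhibitor, with its 2 lowest inhibitor values in WT_PD 1 and 2. Spred1 stayed within 14.6 to 18.4 FPKM in all 8 libraries (0.09 ± 0.13). Among the members with the smallest p, Dusp4, a nuclear phosphatase of ERK and other MAP kinases, had vehicle values of 17.2, 14.6, 19.7 and 23.6 FPKM and inhibitor values of 12.5, 10.4, 19 and 17.5 FPKM (-0.35 ± 0.21, unadjusted p = 0.12 by limma). Il17rd, an inhibitor of FGF signalling, differed by -0.15 (unadjusted p = 0.0653 by limma), and Phlda1, a gene induced by growth factors, by 0.51 (unadjusted p = 0.0829 by limma). Ccnd1, the cyclin that ERK induces on the way into the cycle, ran from 39.5 to 46.1 FPKM with vehicle and 34.9 to 67.8 with inhibitor. Myc, a growth-promoting transcription factor, ran from 10.3 to 18.3 FPKM with vehicle, was at 6.75 and 6.78 in WT_PD 1 and 2, and at 34.4 and 18.3 in WT_PD 3 and 4.

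**Figure D2:**
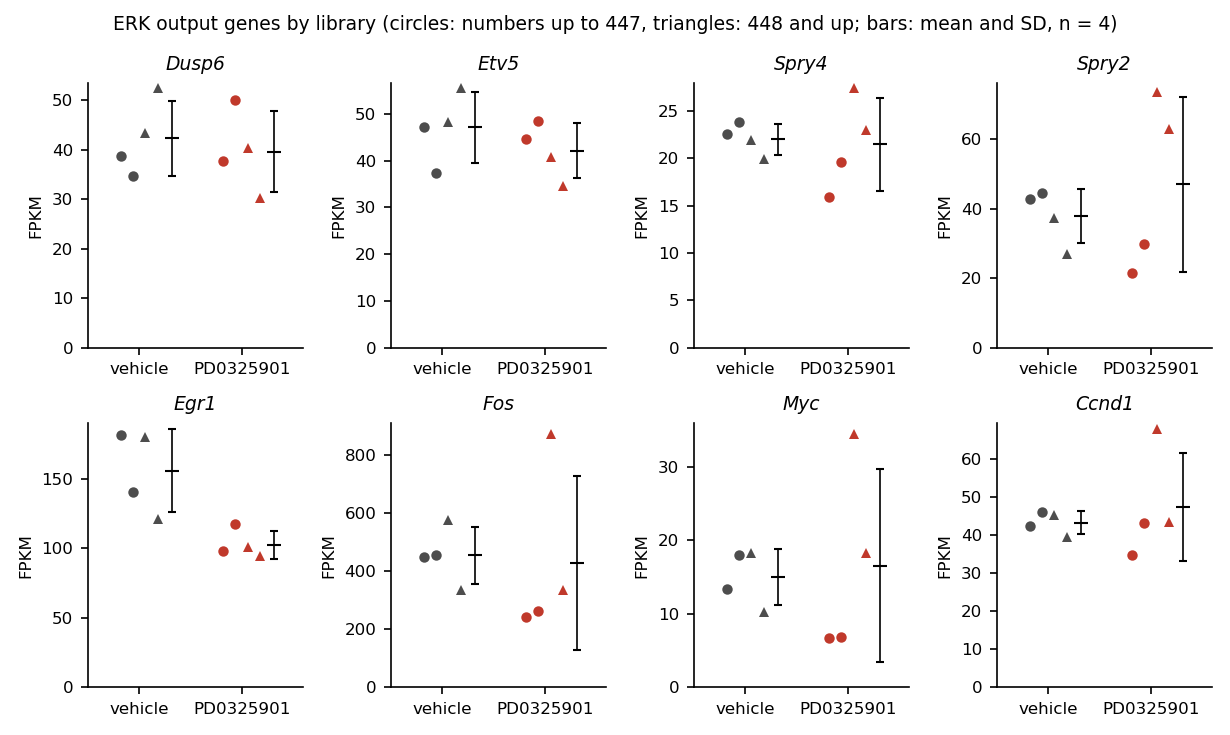
FPKM of 8 ERK output genes in each wild-type library, vehicle in grey and PD0325901 in red, with circles for library numbers up to 447, triangles for 448 and up, and bars for the mean and SD of 4 libraries. Of these 8 genes, only for Egr1 do the inhibitor libraries (94.1 to 117) all sit below the vehicle libraries (121 to 181), while Spry2, Fos and Myc spread widely with inhibitor, low in the circles and high in a triangle.

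The genes of the cascade itself had small differences with narrow intervals. Of 27 core genes from RAS to ERK, 10 lay below vehicle (set medians -0.03 and 0.05), their differences ran from -0.07 to 0.10, and all 27 intervals lay within 1 log2 unit. Shoc2, a scaffold for RAS and RAF, Sos1, the exchange factor that loads RAS, and Rasa1, which switches RAS off, had the smallest p and differences of 0.08, 0.10 and 0.08. Of 19 receptor genes tested, 11 lay below vehicle with a median of -0.04 (set medians -0.12 and 0.33). Gfra2, the receptor for neurturin, was at 1.33 to 2.29 FPKM with vehicle and 1.51 to 4.22 with inhibitor, and Met and Erbb3, receptors for HGF and neuregulin, differed by 0.31 and -0.27, none with an unadjusted p under 0.05.

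Egr1 was the exception among the output genes. This zinc finger transcription factor (GRCm38 chromosome 18, 34859823 to 34864984, plus strand) is induced by ERK through serum response factor and its ELK partners. It stood at 181, 140, 180 and 121 FPKM with vehicle and at 97.9, 117, 101 and 94.1 FPKM with inhibitor. Every inhibitor library lay below every vehicle library. The difference was -0.58 ± 0.20, or 66.8% of vehicle with an interval from 49.3% to 90.4%, with an unadjusted p of 0.0127 by limma and an adjusted p of 1. It was -0.57 within the lower numbers and -0.59 within the higher, and it ran from -0.70 to -0.50 over the 21 alternative settings. Because the groups did not overlap, its negative sign in both sets and under removal of libraries was fixed beforehand. Its relatives Egr2 and Egr3 differed by -0.36 and -0.41 (unadjusted p = 0.0555 and 0.0466 by limma), with groups that overlapped. Egr2 was at -0.07 within the lower numbers and -0.65 within the higher, so its difference lay mainly in the higher numbers. Egr3 was at -0.30 and -0.53. Egr2 stood at 39, 23.9, 31.2 and 38.2 FPKM with vehicle and at 29.1, 28.8, 23.9 and 19.9 with inhibitor.

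Most immediate early genes had opposite signs in the 2 sets (19 of 23, 82.6%, against 74.1% of all tested genes). Of 23 tested, 22 lay below vehicle, with a median of -0.28. An unadjusted p under 0.05 was reached by 2 of them, Egr1 and Egr3, where 0.891% of all tested genes reached it, and 1, Egr1, did not overlap, where 0.659% of all genes did not. Ccn1, a secreted matrix protein named after its values were seen, was also below vehicle in both sets (-0.72 and -0.69), at 45.3, 86, 141 and 92.3 FPKM with vehicle and 38.7, 36.5, 135 and 36.8 FPKM with inhibitor, and its groups overlapped. The list median was -0.72 within the lower numbers and 0.33 within the higher numbers. Fos, a subunit of the AP-1 factor, stood at 450, 456, 576 and 335 FPKM with vehicle and at 243, 262, 874 and 334 FPKM with inhibitor. WT_PD 1, 2 and 4 were below all vehicle libraries, WT_PD 4 at 334 against the lowest vehicle value of 335 FPKM, and WT_PD 3 was above all of them, for a difference of -0.27 ± 0.41. The mean log2 level of the list was 6.37, 6.57, 6.82 and 6.29 with vehicle and 5.62, 5.63, 7.05 and 6.56 with inhibitor, in the same pattern as the peritubular markers. Without WT_PD 1 the count below vehicle was 14 of 23 and without WT_PD 2 it was 13, both with a median of -0.06. With the peritubular level as a term in the fit, 12 of 23 lay below with a median of -0.01. Without WT_PD 1 and 2 together, 5 of 23 lay below and the median was 0.34.

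Some immediate early promoters carry elements through which growth factor signals act, shown here for the members of this list with a match (Egr1 had no window). The CArG box binds serum response factor, and the element TGACGTCA, which reads the same on both strands, binds CREB. In the 250 bases before the RefSeq start, searched on both strands, a CArG box stood in 3 of the 19 immediate early genes with a window (15.8%), against 1.5% of 9736 tested genes with one and 1.47% of all 32851 windows. TGACGTCA stood in 2 of 19 (10.5%), against 3.12% of the tested genes and 1.55% of all windows. The ETS site CCGGAAGT, also searched on both strands, stood in 0 of 19, against 6.95% of the tested genes and 2.88% of all windows. A match describes letters in a window and not binding. The stretches follow 5′ to 3′ on the gene's strand, from RefSeq on GRCm38.p6, with the elements in capitals, for Egr2 (chr10:67537777-67537826, plus), Srf (chr17:46556195-46556244, minus), Zfp36 (chr7:28379257-28379306, minus), Btg2 (chr1:134079294-134079341, minus) and Dusp1 (chr17:26508588-26508635, minus).
Egr2: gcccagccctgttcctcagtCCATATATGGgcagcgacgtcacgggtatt
Srf: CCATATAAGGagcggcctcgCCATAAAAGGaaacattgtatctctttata
Zfp36: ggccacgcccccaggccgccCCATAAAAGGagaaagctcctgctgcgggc
Btg2: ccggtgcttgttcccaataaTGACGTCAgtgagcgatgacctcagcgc
Dusp1: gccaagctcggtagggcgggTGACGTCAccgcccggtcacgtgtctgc
Srf carries 2 CArG boxes in this stretch. Of these genes, which were chosen for their elements, Srf differed by -0.08, Zfp36 by -0.20, Btg2 by -0.40 and Dusp1 by -0.24. Each of them was negative within the lower numbers and positive within the higher. Egr2 was near 0 within the lower numbers (-0.07) and below it within the higher (-0.65).

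Stem cell genes lay below vehicle as a list, mainly in the higher library numbers. All 19 tested members had a difference below 0 (Pou3f1 by less than 0.01), where 46.0% of all genes did, with a median of -0.21. By limma 6 had an unadjusted p under 0.05 (31.6%, where 0.891% of all tested genes did) and 0 passed adjustment. Of the 6, Egr3 is also counted among the immediate early genes, and the member Etv5 is also counted with ERK output. The libraries did not overlap for 1 member, a gene below 1 FPKM in most libraries, where 0.659% of all genes did not overlap. The list median was 0.07 within the lower numbers and -0.57 within the higher, where 18 of 19 lay below. Lhx1, a GDNF-induced homeobox factor, stood at 6.11, 6.38, 8.43 and 13.8 FPKM with vehicle and at 5.28, 6.17, 4.95 and 3.95 FPKM with inhibitor. Only WT_PD 2, at 6.17, overlapped the vehicle range. The difference was -0.66 ± 0.24 (unadjusted p = 0.0141, adjusted p = 1 by limma), with -0.12 in the lower and -1.20 in the higher numbers. The T-box genes T and Eomes, which mark stem cell subsets, differed by -0.60 and -0.47, with -0.09 and -0.04 in the lower numbers and -1.12 and -0.91 in the higher.

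The GDNF receptor genes showed the split plainly. Gfra1, the GDNF-binding subunit, stood at 36.7, 40.2, 55.9 and 58.9 FPKM with vehicle and at 49.3, 46.7, 36.8 and 34.1 FPKM with inhibitor. Inhibitor was higher within the lower numbers (0.32) and lower within the higher numbers (-0.69), for -0.19 ± 0.16 in all and an interval from 69% to 112% of vehicle. Ret, the signalling subunit, stood at 71.5, 57.3, 78.3 and 84.6 FPKM with vehicle and at 70.4, 74.2, 54.2 and 54.3 with inhibitor (-0.20 ± 0.13). Nanos2, an RNA-binding guardian of the stem cell state, differed by -0.21 ± 0.16, and Id4, a stem cell marker, by -0.03 ± 0.08 with values of 21 to 25.1 FPKM in all 8 libraries. Without WT_vehicle 4 and WT_PD 4 together, 14 of 19 stem cell genes lay below vehicle and the median was -0.09.

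Progenitor genes, which mark undifferentiated cells preparing to differentiate, lay mostly above vehicle. Of 12, 10 were higher, the median was 0.13 (0.20 and 0.11 in the 2 sets), and 0 had an unadjusted p under 0.05. Neurog3, a transcription factor of progenitors, stood at 4.17, 4.27, 2.96 and 3.25 FPKM with vehicle and at 7.03, 7.09, 3.43 and 3.83 FPKM with inhibitor (0.44 ± 0.28, unadjusted p = 0.142 by limma). Inhibitor exceeded vehicle within each set, and the groups overlapped across sets. Without WT_PD 1 and 2 its difference was 0.00 and the list median -0.08. Sox3 and the retinoic acid receptor gene Rarg differed by 0.23 and 0.19 with overlapping groups. Kit, the receptor that marks differentiating spermatogonia, ran from 1.95 to 2.82 FPKM with vehicle and 1.97 to 4.5 with inhibitor, and Stra8, a retinoic acid target, from 20.2 to 31.8 and 19.8 to 33.8 FPKM. Of 13 differentiating genes, 5 lay below vehicle with a median of 0.03 (set medians 0.04 and 0.14), the smallest p falling to Crabp1, Dnmt3b and Kit (0.17, 0.16 and 0.16).

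**Figure D3:**
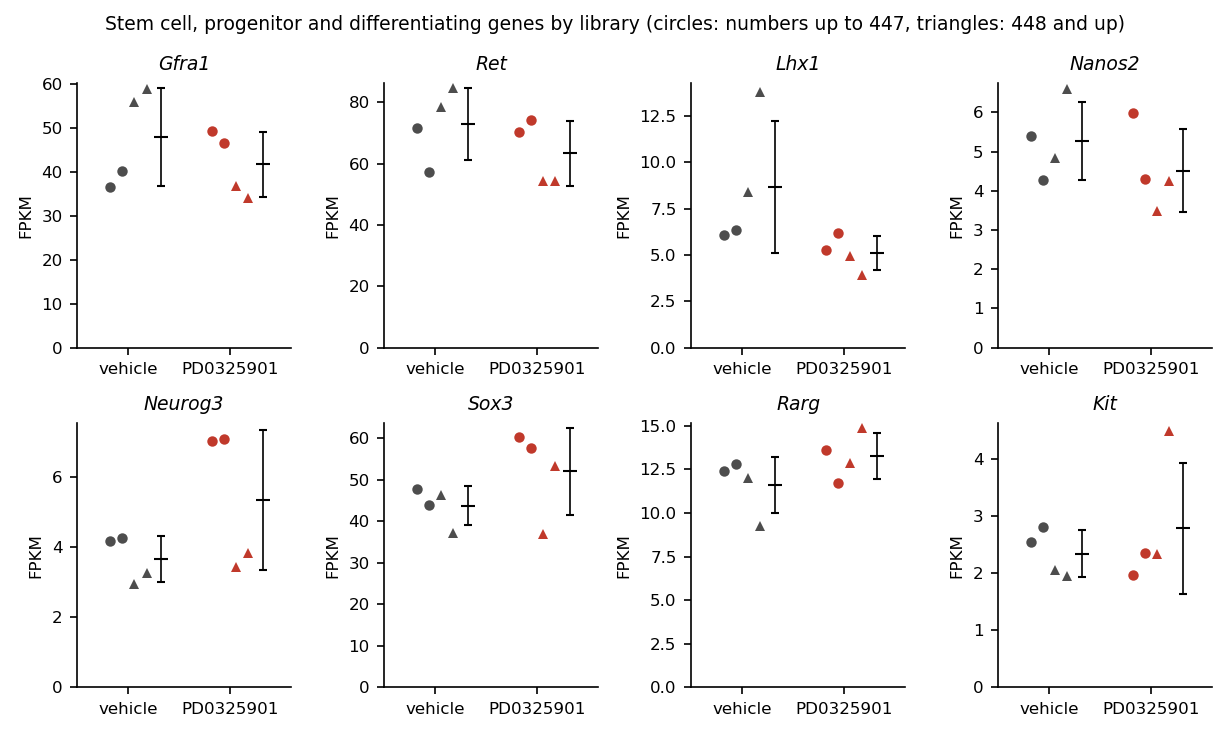
FPKM of 4 stem cell genes, 3 progenitor genes and Kit in each wild-type library, vehicle in grey and PD0325901 in red, with circles for library numbers up to 447, triangles for 448 and up, and bars for the mean and SD of 4 libraries. Gfra1, Ret and Lhx1 show vehicle triangles above inhibitor triangles, and for Neurog3 the inhibitor circles (7.03 and 7.09) sit above all other libraries.

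Genes of the whole undifferentiated pool had opposite shifts in the 2 sets. Of 19, 9 lay below vehicle, with a median of 0.01, but within the lower numbers 0 of 19 did (median 0.16) and within the higher numbers 17 of 19 did (median -0.14). All 19 intervals lay within 1 log2 unit. Zbtb16, the zinc finger factor that defines the pool, stood at 103 to 121 FPKM with vehicle and at 85.6 to 125 FPKM with inhibitor (-0.06 ± 0.11), and Sall4 and Sall1, zinc finger partners of the pool, differed by -0.18 and 0.24. Of 23 meiotic genes 11 lay below (set medians 0.14 and -0.15), and the 3 with the smallest p, Msh5, Rec8 and Smc1b, differed by -0.11 to -0.13. Of 13 spermatid genes all 13 lay below vehicle with a median of -0.55 (set medians 0.02 and -0.94), and single libraries of both groups were low. Prm2, a sperm nuclear protein, stood at 18.4, 1.63, 10.7 and 18.1 FPKM with vehicle and at 0.44, 24.9, 13.1 and 1.26 with inhibitor.

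Of 15 retinoic acid genes, 6 lay below vehicle, where 46.0% of all tested genes did (set medians -0.07 and 0.18), and 1 did not overlap, where 0.659% of all genes did not. That gene was Aldh1a1, a retinaldehyde dehydrogenase that makes retinoic acid (GRCm38 chromosome 19, 20492715 to 20643465). It stood at 3.36, 3.05, 2.72 and 1.68 FPKM with vehicle and at 3.9, 7.24, 5.95 and 3.92 FPKM with inhibitor. Each inhibitor library exceeded each vehicle library (0.83 ± 0.34, unadjusted p = 0.0262, adjusted p = 1 by limma). Its relative Aldh1a3 lay at 2.25 to 4.22 and 1.88 to 2.64 FPKM (-0.37 ± 0.19). The library highest in Aldh1a1, WT_PD 2, was also the highest wild-type library for the fibroblast gene Col3a1 (9.75 FPKM), but not for Col1a1 or Col5a1. It was highest too for Gpx3 (16.4 FPKM), a gene described below. The next highest for Aldh1a1, WT_PD 3, was also next highest for Col3a1 (4.24 FPKM) and Gpx3 (14.9 FPKM). Which cells of the samples carried Aldh1a1 or Gpx3 was not tested.

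Cell cycle genes had small differences whose direction differed between the sets. Of 33 DNA replication genes 25 lay below vehicle, with a median of -0.06, but 3 of 33 did within the lower numbers (median 0.08) and 31 within the higher (median -0.18). Of 25 mitosis genes 18 lay below, with a median of -0.05, but 2 did within the lower numbers (median 0.07) and 25 within the higher (median -0.17). Without WT_PD 3 the medians were 0.01 for replication and 0.05 for mitosis. All 33 and all 25 intervals lay within 1 log2 unit, and 0 of the genes had an unadjusted p under 0.05. Prim1, Mcm10 and Mcm5, of the replication primase and helicase, differed by -0.16, -0.18 and -0.12, and Ccnb2, Ncaph and Top2a, which act in mitosis, by -0.16, -0.10 and -0.11. Mki67, a marker of cycling cells, stood at 32.1 to 40.9 FPKM with vehicle and 27.8 to 36.9 with inhibitor, an interval from 75.6% to 117% of vehicle. Of 20 genes of G1 entry, 11 lay below (set medians 0.02 and 0.00), and Cdk6, Rb1 and Ccne1 differed by 0.32, 0.13 and -0.13. Cdkn1a, the p53-induced cycle inhibitor, ran from 8.99 to 18.4 FPKM with vehicle and from 5.34 to 27.2 with inhibitor, low in WT_PD 1 and 2 and high in WT_PD 3 and 4.

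Of 25 p53 targets 14 lay below vehicle with a median of -0.03 (set medians -0.06 and 0.09), and Sesn2, Ddb2 and Aen differed by -0.21, -0.20 and -0.13. Sesn2, an inhibitor of mTORC1, was at 29.4 to 37.6 FPKM with vehicle and 27.6 to 29.5 with inhibitor, an overlap of only WT_vehicle 2 with WT_PD 2 (unadjusted p = 0.0336 by limma). Of 22 Bcl2 family genes 11 lay below (set medians -0.12 and 0.14), with Bik, Casp9 and Bmf at -0.15, -0.11 and -0.12. Of 24 genes of homologous recombination and crosslink repair 15 lay below, with a median of 0.00 (set medians 0.15 and -0.17) and differences from -0.09 to 0.09. For FOXO targets 14 of 20 lay below with a median of -0.02 (set medians -0.13 and 0.16), Pik3ip1 and Pik3r1, regulators of PI3 kinase, standing at -0.19 and 0.21. Of 14 interferon genes 4 lay below (set medians -0.10 and 0.33), and the antiviral gene Rsad2 differed by -0.41 while Irf9 differed by 0.11.

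The cholesterol, ribosome biogenesis, glycolysis and ATF4 lists had medians between -0.06 and 0.01. Cholesterol genes lay below vehicle in 16 of 21 (set medians -0.02 and -0.07), with Lss and Insig1 both at -0.13. Ribosome biogenesis genes lay below in 8 of 21 (set medians 0.09 and -0.03), with Nhp2, Dkc1 and Bop1 at 0.19, 0.11 and 0.08. Glycolysis genes lay below in 10 of 18, with a median of -0.26 in the lower and 0.30 in the higher numbers, and Eno1, Slc2a1 and Pfkm differed by 0.21, 0.11 and -0.18. ATF4 targets lay below in 14 of 18 (set medians -0.04 and 0.09), yet the asparagine synthetase gene Asns lay higher without overlap, at 2.29 to 2.54 FPKM with vehicle and 2.65 to 4.01 with inhibitor (0.35 ± 0.15), and Psat1, of serine synthesis, differed by 0.23. Of 12 mitochondrially encoded genes 1 lay below, with a median of 0.07 (set medians 0.05 and 0.17), and mt-Atp6, mt-Atp8 and mt-Nd6 differed by 0.69, 0.75 and 0.32.

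**Figure D4:**
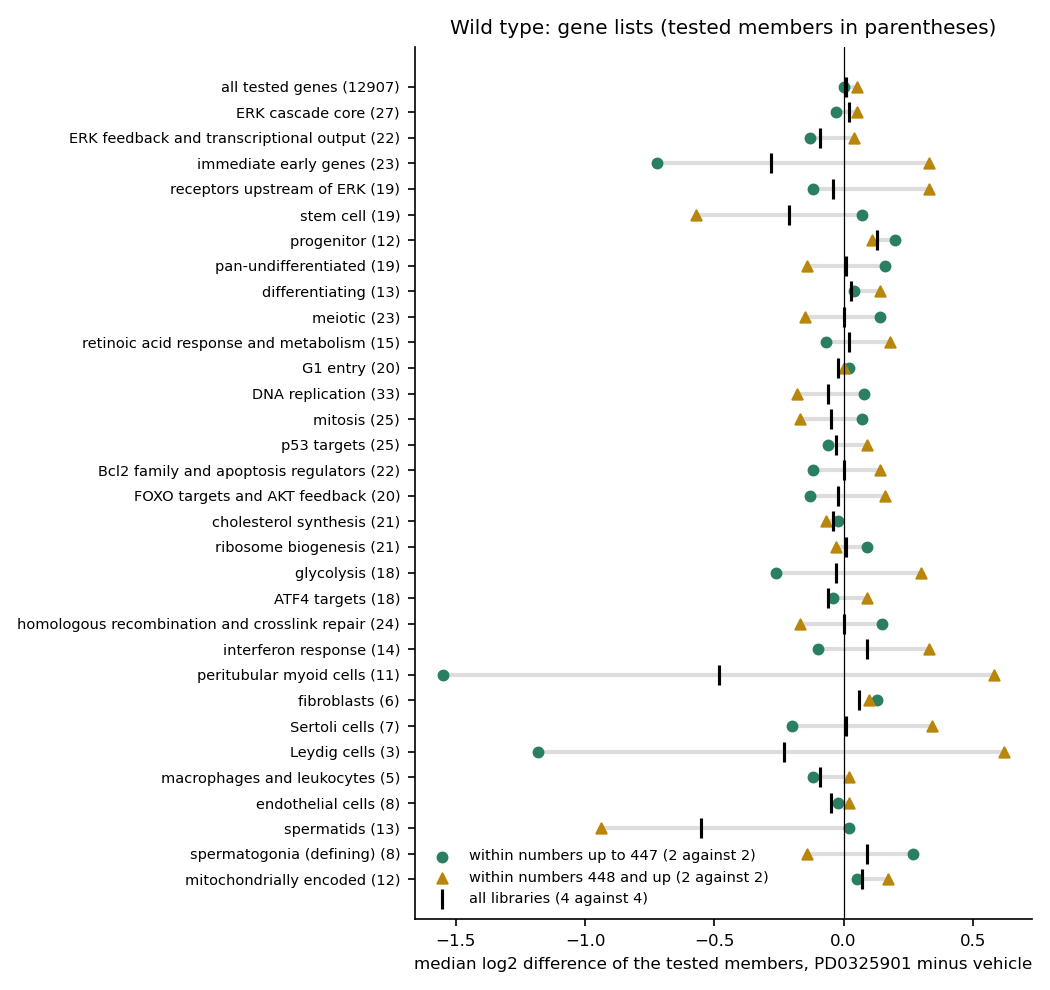
Median log2 difference, PD0325901 minus vehicle, of the tested members of each gene list, over all 8 wild-type libraries (black ticks), within library numbers up to 447 (green circles) and within 448 and up (brown triangles). Peritubular (-1.55 and 0.58) and immediate early genes (-0.72 and 0.33) have circles to the left and triangles to the right of 0, and stem cell genes (0.07 and -0.57) the reverse.

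Some genes kept the groups apart in every library, though fewer than expected without any difference. By the naming rule, 10 higher and 9 lower genes with the smallest p were taken from the 85 without overlap, at a mean of at least 2 FPKM, so their separation is how they were chosen. Higher with inhibitor was Cables1, which links cyclin-dependent kinases to ABL kinase, at 3.19, 1.56, 2.31 and 1.83 FPKM with vehicle and 4.17, 3.33, 4.22 and 3.6 with inhibitor (0.70 ± 0.20, unadjusted p = 0.00384 by limma). Gpx3, the secreted glutathione peroxidase, stood at 9.02, 6.3, 6.57 and 4.48 FPKM with vehicle and 10.4, 16.4, 14.9 and 9.2 with inhibitor (0.90 ± 0.35). In both genes WT_vehicle 1 was the highest vehicle library and came close to the lowest inhibitor library, at 3.19 against 3.33 FPKM for Cables1 and 9.02 against 9.2 FPKM for Gpx3. Stx6, a syntaxin of the trans-Golgi, was at 3.19 to 4.1 and 4.32 to 5.94 FPKM (0.39 ± 0.13), and Ugcg, which makes glucosylceramide, at 9.08 to 10.8 and 11 to 12.7 FPKM (0.24 ± 0.10). The others were Armcx4, the phosphatase methylesterase Ppme1, Aldh1a1, Tmem181a, the lariat debranching enzyme gene Dbr1 and Garem1, an adaptor between growth factor receptors and ERK, with differences from 0.16 to 0.83.

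Lower with inhibitor was Barx1, a homeobox factor, at 8.22, 5.75, 7.26 and 12.8 FPKM with vehicle and 5.24, 3.75, 5.14 and 4.12 FPKM with inhibitor (-0.79 ± 0.24, unadjusted p = 0.00475 by limma, 58% of vehicle). Nfatc2, a calcineurin-responsive transcription factor, stood at 4.83, 4.13, 5.17 and 5.87 FPKM with vehicle and 4.11, 4.06, 3.42 and 3.76 with inhibitor (-0.34 ± 0.10). The gap for Nfatc2 was narrow, between 4.11 and 4.13 FPKM. Rpp38, a protein subunit of RNase P, stood at 8.04 to 9.57 and 6.79 to 7.56 FPKM (-0.27 ± 0.08, unadjusted p = 0.00425 by limma). Egr1 belongs here too, with the receptor tyrosine kinase gene Ephb1, Zscan5b, the phosphatase gene Acp1, the mitochondrial protease gene Parl and the adhesion gene Mpzl2, whose differences ran from -0.15 to -0.61.

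The 5 largest differences in each direction at a mean of at least 2 FPKM, predicted genes left out and whatever their p, came from genes whose libraries differed widely within a group. Vcp-rs, a processed pseudogene that can share reads with its parent Vcp, stood at 3.53, 3.91, 3.94 and 2.96 FPKM with vehicle and 91.1, 44.7, 3.53 and 44.5 with inhibitor. WT_PD 3 was at the level of the wild-type vehicle libraries. Similar high and low levels of Vcp-rs occurred without inhibitor in the knockout, at 86.4, 3.66, 43 and 42.4 FPKM with vehicle. With inhibitor the knockout libraries stood at 81.8, 3.54, 41.9 and 3.54 FPKM. Gdpd3, a lysophospholipase, stood at 15.9, 0.96, 0.461 and 6.53 FPKM with vehicle and 10.7, 10.4, 15.6 and 16.6 with inhibitor. Or5m3b, an olfactory receptor gene without a position in the annotation used, stood at 1.9, 4.48, 4.05 and 3.76 FPKM with vehicle and at 0.0587, 0, 0.226 and 7.21 with inhibitor. The others were the pseudogene Rbpj-ps3 (1.16), Steap4 (0.95) and the collagen gene Col3a1 (0.93) on the higher side, and P2rx1 (-1.20), Cnn1 (-1.13), Prm2 (-0.97) and Tnp2 (-0.95) on the lower.

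The same inhibitor was given to Spry4 knockout mice, whose 8 libraries are separate from these. There too limma called 0 of 12907 genes, with 382 (2.96%) at an unadjusted p under 0.05, and the difference between the 2 genotypes' responses called 0, with 1.71% of genes at that unadjusted level. Of the 19 leading genes, 10 had the same sign in the knockout, 5 of 10 higher and 5 of 9 lower, where 45.1% of all tested genes did. Among the 10 is Armcx4, whose difference in the knockout was 0.00. Of all 85 genes without overlap in wild type, 36 (42.4%) had the same sign in the knockout. Egr1 differed by -0.13 in the knockout, and the difference between genotypes had an unadjusted p of 0.142 by limma. Aldh1a1 differed by -0.65 there against 0.83 in wild type (unadjusted p of the interaction = 0.00727 by limma), Cables1 by -0.15 against 0.70 (0.0101), Nfatc2 by 0.12 against -0.34 (0.00689) and Ugcg by -0.15 against 0.24 (0.0126), none past adjustment. These genes were chosen for their wild-type difference, which is part of the interaction. Their interaction p-values are therefore biased low and do not show that the genotypes respond differently. Dbr1 lay 0.16 higher in both genotypes, without overlap in either. In the knockout 49.5% of all tested genes lay below vehicle. Stem cell genes did so in 15 of 19 with a median of -0.17, progenitor genes above in 6 of 12 with a median of 0.11, and immediate early genes below in 3 of 23 with a median of 0.41. The peritubular median was 0.67 in the knockout, where 0 of 11 markers lay below.

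**Figure D5:**
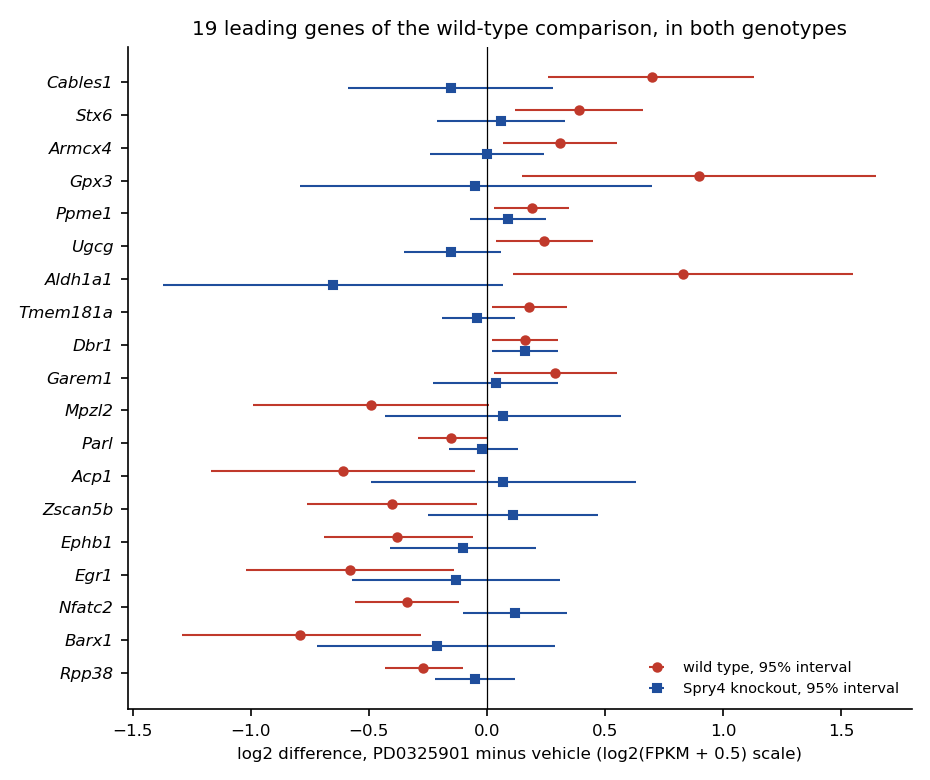
Log2 difference, PD0325901 minus vehicle, with 95% intervals for 19 genes chosen because their wild-type libraries do not overlap, in wild type (red circles) and in Spry4 knockout (blue squares). In wild type the values run from -0.79 (Barx1) to 0.90 (Gpx3), and in the knockout 10 of the 19 lie on the same side of 0.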

How the data were processed

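Polyadenylated RNA of sorted spermatogonia was sequenced from stranded libraries, per the labels' protocols. The authors deposited FPKM values for 16383 genes in 16 libraries. Per the submitters' processing notes, the authors' tools were FastQC, STAR 2.7.10a and edgeR 4.0.14, and the builds listed were mm10 and GRCm39, without the role of any. Scaling between libraries is not given in the sources used here. In WT_PD 3 the recovered reads in listed genes (36307800) exceeded the recovered divisor (32258200), as they also did in WT_vehicle 3 and WT_PD 4. Those divisors were thus not plain totals of the reads, and how they were set is not said. Values in the columns of WT_vehicle 4 and WT_PD 4 carry more decimals than the others.

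Columns were matched to samples by the names in the labels. The values were tested as log2(FPKM + 0.5) with limma 3.58.1 in R 4.3.3. The model had 1 mean per group over all 16 libraries, which share 1 estimate of the spread, with variances moderated along a trend. The 12907 genes with at least 1 FPKM in 4 or more libraries were tested, and 3476 were left out. The Benjamini-Hochberg adjustment ran over all tested genes. Of the symbols, 15771 (96.3%) matched GENCODE M21 (GRCm38), whose exon lengths were used to recover whole reads. In the wild-type libraries 93.1% to 94.0% of low values came within 0.1 of a whole number, and the recovered reads were used in voom as an alternative.

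The genes named were 24 fixed genes of ERK output and germ cell states, up to 10 genes in each direction with the smallest p among those whose libraries did not overlap, at a mean of at least 2 FPKM (10 higher and 9 lower are reported), up to 3 members with the smallest p of each list described, and the 5 largest differences in each direction. Some genes the rule names are not reported here. Srf, Zfp36, Btg2, Dusp1, Ccn1 and Pou3f1 fall outside this rule and were chosen after their values were seen. The members and all 32 lists were chosen with earlier results of these data known. In all, 21 alternatives were run, 17 listed at the start and 4 added after seeing the data.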

Additional observations from a re-analysis of the deposited data

Results flagged for a closer look

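Among the named genes, 250 groups of 4 libraries were checked for 1 library far from the other 3 by Dixon's test at its 95% critical value, and 10 were marked, where chance marks about 1 in 20. Spred1 was at 14.6 FPKM in WT_vehicle 3, with the others at 16.8 to 16.9. In WT_PD 4, Ppme1 stood at 29.9 FPKM beside 26.4 to 26.9 in the others. Mpzl2 was at 10 FPKM in WT_vehicle 4, with the others at 5.32 to 5.86. In WT_vehicle 3, Rbpj-ps3 stood at 3.32 FPKM beside 0.477 to 0.713 in the others. Or5m3b was at 7.21 FPKM in WT_PD 4, with the others at 0 to 0.226. In WT_vehicle 2, Tnp2 stood at 0.541 FPKM beside 13.3 to 20.3 in the others. Ncaph was at 23.4 FPKM in WT_PD 1, with the others at 17.5 to 18.3. In WT_vehicle 2, Casp9 stood at 17.6 FPKM beside 19.6 to 19.9 in the others. In WT_vehicle 2, Tssk6 stood at 0.256 FPKM beside 0.943 to 1.07 in the others. mt-Atp6 was at 0.998 FPKM in WT_PD 1, with the others at 2.23 to 2.5. Of the 10 libraries marked, 3 were WT_vehicle 2, each with the lowest value of its group (Tnp2, Casp9 and Tssk6).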

How the results depend on the processing

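Under all 21 alternatives 0 genes passed the adjusted threshold in either direction by limma. The smallest adjusted p was 0.489 without WT_PD 1 and 2, with 1183 genes (9.17%) at an unadjusted p under 0.05. It was 0.712 with the peritubular level as a term (864 genes, 6.69%) and 0.642 with the peritubular and spermatid levels (1003 genes, 7.77%), and it rounded to 1 in the others except 0.992 without WT_PD 3. Same-numbered libraries deviated from their group means with correlations of 0.59, -0.53, 0.64 and -0.16, which differ in sign. Since a mouse received either inhibitor or vehicle, a replicate number cannot mark an animal shared between these groups. These values do not settle whether it marks a shared day, which the labels do not say. A fit with the replicate block called 0 genes, with 146 at an unadjusted p under 0.05. Centring each library on its median moved the share of genes below vehicle from 46.0% to 51.2%.

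Library removals were also made in 2 pairs added after seeing the data, without WT_PD 1 and 2, which leaves inhibitor libraries of the higher numbers only, and without WT_vehicle 4 and WT_PD 4. Over these and the removals of 1 library, list medians ran as follows: the Bcl2 family -0.06 to 0.16, the ERK core -0.04 to 0.14, ERK output -0.11 to 0.13, glycolysis -0.13 to 0.31, repair -0.19 to 0.08, immediate early genes -0.58 to 0.34, Leydig markers -0.64 to 0.78, meiotic genes -0.22 to 0.14, mitochondrial genes -0.01 to 0.36, the undifferentiated pool -0.21 to 0.14, peritubular markers -1.02 to 0.89, receptors -0.07 to 0.32, Sertoli markers -0.04 to 0.45 and defining spermatogonial genes -0.23 to 0.23. Each of these 14 moved by more than the spread between libraries only without WT_PD 1 and 2, and the other medians did so in no alternative. The cause was not tested.

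Over the same removals the sign turned at least once for genes whose highest value came without WT_PD 1 and 2: Actg2 -1.20 to 0.88, Ccnd1 -0.10 to 0.33, Cd14 -0.88 to 0.72, Cd74 -0.43 to 0.09, Cdkn1a -0.57 to 0.79, Cnn1 -1.90 to 0.95, Fabp3 -0.64 to 0.85, Fos -0.69 to 0.28, Inha -0.77 to 0.45, Kit -0.12 to 0.42, Lhcgr -1.33 to 0.67, Lmod1 -1.12 to 0.71, Myc -0.60 to 0.76, Nr5a1 -0.32 to 0.78, P2rx1 -1.88 to 0.69, Pfkm -0.38 to 0.25, Slc2a1 -0.02 to 0.19, Spry2 -0.19 to 0.86 and Spry4 -0.19 to 0.18. It also turned for Dusp6 -0.26 to 0.13, Etv5 -0.31 to 0.02, Gfra1 -0.40 to 0.01, Id4 -0.08 to 0.03, Mki67 -0.16 to 0.00, Rasa1 -0.05 to 0.14, Rec8 -0.30 to 0.05, Sall1 -0.09 to 0.46, Stra8 -0.21 to 0.16 and Zbtb16 -0.25 to 0.06, whose highest value came from another removal.

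With the peritubular level as a term signs turned for Spry4 (0.07), Myc (0.19), Cdkn1a (0.14), Stra8 (-0.07), Fabp3 (0.18) and Pfkm (0.00), and with the spermatid level added for Spry4 (0.06), Myc (0.14), Cdkn1a (0.12), Stra8 (-0.02), Fabp3 (0.15), Pfkm (0.01), Cd14 (0.00) and Cd74 (0.06). In all, 29 of the 125 named genes turned sign at least once. The 19 leading genes were chosen for libraries that do not overlap, so leaving out libraries could not turn their sign.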
